A study of Mus musculus with 13 samples.

Results

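TGF-beta and BMP signaling was examined through 42 genes, chosen by symbol from the 32285 genes counted in each library. Of these, 15 were genes of TGF-beta ligands, activin and inhibin subunits, and BMP or GDF ligands. The others were the protease Bmp1, 13 receptors, co-receptors and the pseudoreceptor Bambi, 7 secreted antagonists, 3 Smads and 3 Id genes. The levels were measured in mouse mammary fibroblasts by droplet single-cell RNA sequencing, in 13 libraries. Stage libraries came from C57BL/6 females at puberty (4 weeks), as virgin adults (9 weeks), at pregnancy day 14.5, lactation day 10 and involution day 4, with 1 library each and 2 females per condition. Placebo and MPA+E libraries (2 each, C57BL/6, 9 weeks) came from females carrying subcutaneous pellets, without hormone or with medroxyprogesterone acetate plus estradiol, and each replicate joined 2 females. All of these were sorted stromal cells without lineage markers or CD24. Hyperplasia and tumor libraries (2 each) came from raGFP-Wnt1 mice, which carry a Pdgfra-GFP knock-in allele and an MMTV-Wnt1 transgene driven by the mammary tumor virus promoter, on a mixed C57BL/6 and FVB background. Their GFP+ cells were sorted, and the same mouse gave hyperplasia 1 and tumor 1 (45 weeks), and another gave hyperplasia 2 and tumor 2 (17 weeks).

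TGF-beta, activin and BMP ligands are secreted dimers that bring together type I and type II receptor kinases on the cell surface. The receptors then phosphorylate Smad proteins, with Smad3 acting mainly for TGF-beta and activin. The inhibitory Smad6 and Smad7 dampen the signal, and Id1, Id2 and Id3 are classic targets of the BMP branch. Antagonists such as noggin, gremlin, chordin and follistatin bind ligands outside the cell. In connective tissue the TGF-beta branch is known for matrix deposition and contractile fibroblasts, and BMPs are known for effects on mesenchymal fate.

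Fibroblast barcodes held 500 to 7500 genes, at most 10% mitochondrial UMIs (unique molecular identifiers, 1 per captured transcript), and at least 50 UMIs of Dcn, Lum and Col1a2 per 10000, with no UMI of Epcam, Pecam1, Rgs5, Sox10, Ptprc or Myog. They numbered 100523 of 120355 barcodes, 4236 to 11951 per library, with 47521842 to 102522735 UMIs per library. Median UMIs per fibroblast ran from 3990 in pregnancy to 20256 in tumor 2. Any 2 libraries shared 3 to 34 fibroblast barcodes, at most 0.503%. The 4 fibroblast markers Dcn, Lum, Pdgfra and Col1a2 were present in all 13 libraries, and the 6 excluded genes, each a marker of another cell type, were at 0 by the rule. Levels are CPM (counts-per-million), the UMIs of a gene relative to all fibroblast UMIs of a library, and 3 UMIs corresponded to 0.0293 to 0.0631 CPM. In the GRCm38 annotation lie, for example, Bmp4 at chr14:46383520-46390669 (-), Inhba at chr13:16011851-16031621 (+), Tgfb3 at chr12:86056745-86079041 (-) and Tgfbr2 at chr9:116084293-116175360 (-). No member was at 0 in a library, and the fewest UMIs over all libraries were 509 for Bmpr1b and 613 for Grem1. Sums over cells cannot tell fewer cells of a state from less RNA per cell.

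Promoter windows of 2 BMP target genes are shown because both genes moved in the comparisons below and because they differ in the Smad motifs they hold. Each runs from 250 bases before to 50 bases after the RefSeq start on GRCm38.p6, read 5′ to 3′ on the strand of the gene, with Id3 at chr4:136143572-136143871 (+) and Smad6 at chr9:64022010-64022309 (-). Capitals mark the motifs searched on both strands.
Id3: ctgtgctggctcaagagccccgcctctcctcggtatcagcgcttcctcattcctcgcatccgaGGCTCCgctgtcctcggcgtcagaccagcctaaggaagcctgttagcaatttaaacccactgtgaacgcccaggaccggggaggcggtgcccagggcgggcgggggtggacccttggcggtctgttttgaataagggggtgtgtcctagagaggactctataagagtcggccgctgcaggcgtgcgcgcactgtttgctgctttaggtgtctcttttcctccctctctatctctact
Smad6: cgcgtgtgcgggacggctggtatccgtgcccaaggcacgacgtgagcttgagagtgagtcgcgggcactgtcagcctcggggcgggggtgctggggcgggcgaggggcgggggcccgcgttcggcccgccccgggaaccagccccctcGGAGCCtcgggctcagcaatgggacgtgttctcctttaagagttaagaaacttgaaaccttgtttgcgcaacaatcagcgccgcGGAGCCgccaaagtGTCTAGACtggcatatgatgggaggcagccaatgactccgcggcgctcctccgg
The palindrome GTCTAGAC, which Smad proteins bind, occurred once in the Smad6 window and in 70 of 32851 windows of the same length (0.213%). The GC-rich BMP-Smad motif GGAGCC or its reverse complement occurred 2 times in the Smad6 window and once in the Id3 window, against a share of 30.8% of all windows. The related GGCGCC was in neither window and in 11.9% of all windows. Of 29 members with a window, 1 held the palindrome, 17 held GGAGCC and 8 held GGCGCC. A member was counted if any of its windows held the motif, while the shares are of single windows, so the 2 are not directly comparable. The motifs did not overlap each other in the windows shown, and a match is a description of the letters and not of binding.

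**Figure D1:**
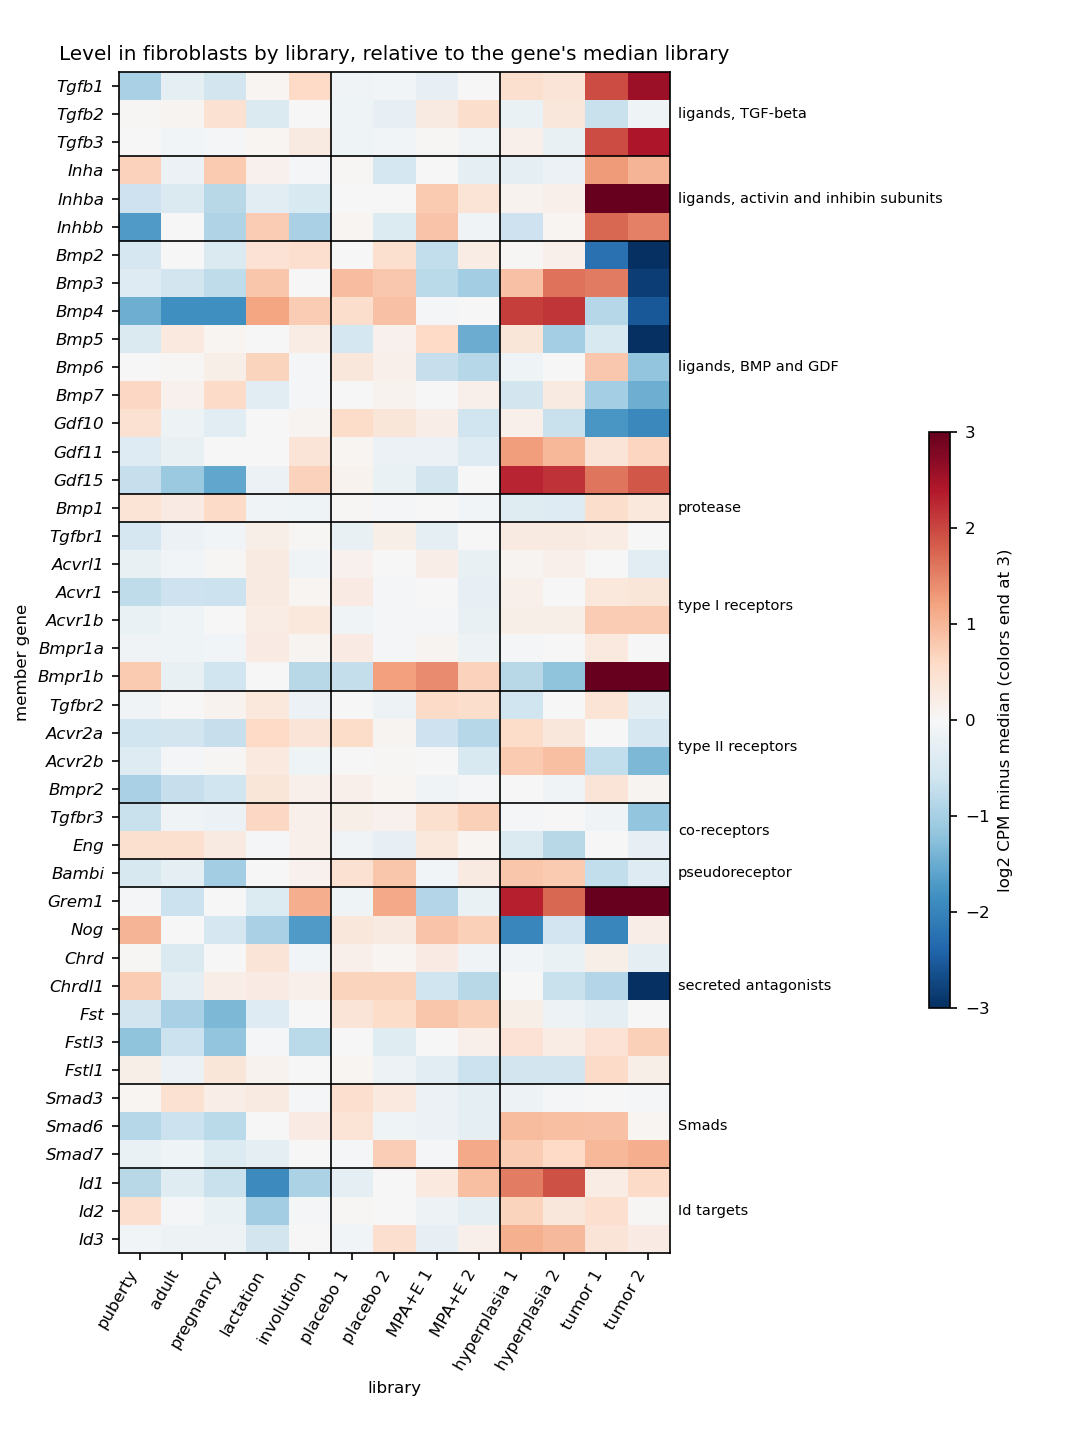
Color gives the log2 CPM of each member (rows, grouped by role) in each of the 13 libraries (columns), minus the member's median over libraries, with the scale ending at 3. Tgfb1, Tgfb3, Inhba, Grem1 and Bmpr1b are highest in the tumor libraries, Bmp4 and Id1 are highest in the hyperplasia libraries, and Bmp2 and Gdf10 are lowest in the tumor libraries.

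The first comparison asked how the members were distributed over fibroblast states within untreated tissue. Clusters were made in each library alone without the members and were named by likeness to fixed markers. Both placebo libraries held progenitor-like (Pi16, Dpp4), preadipocyte-like (Fabp4, Pparg), ECM remodeling-like (Crabp1, Pla2g7), lobular-like (Thbs4, Cilp) and adipogenesis-regulatory-like (Clec11a, Gas6) clusters, and unnamed clusters held 12.9% to 75.3% of cells over all libraries. Of the 40 members with at least 50 UMIs in these states, 19 were at least 4 times higher in their highest than in their lowest state. Among all 13264 such genes the share was 20.9%, which includes genes the clusters were made from. These state levels are descriptions without a test, since cells of a library are not replicates. Between the whole placebo libraries, a coarser limit of 2 times was passed by 1.98% of the 13770 genes with at least 50 UMIs. At a finer clustering 22 members passed the limit of 4 times, all 19 among them.

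The BMP ligands differed between states. Bmp3, an atypical BMP that can oppose other BMPs, had 69.3 and 47.5 CPM in the progenitor-like cells of placebo 1 and 2 and at most 6.03 CPM in any other of the 5 states. Bmp6 had 28.2 and 20.9 CPM there, 21.5 and 11.5 CPM in lobular-like cells, and at most 1.39 CPM in the other states. Bmp7, Bmp2 and Tgfb2 were also highest in progenitor-like cells, with means over both libraries of 48.7, 111.8 and 115.5 CPM against 1.13, 14.9 and 9.6 CPM in the lowest state. Bmp5 was highest in the lobular-like cells, at 82.3 and 85.7 CPM there and at most 9.73 CPM in the other states. Bmp4 was highest in the same cells, at 91.6 and 85.1 CPM, and lowest in preadipocyte-like cells at 1.89 and 3.82 CPM.

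Both activin beta subunits were also highest in lobular-like cells. Inhba, the activin A subunit, had 44.7 and 33.7 CPM in lobular-like cells against 1.75 and 0.838 CPM in progenitor-like cells. Inhbb, the activin B subunit, had a mean of 30.3 CPM in lobular-like cells, 21.7 times its lowest state. Adipogenesis-regulatory-like cells stood out for Gdf10, grouped here with the BMP or GDF ligands, at 528 and 497 CPM against 8.44 and 18.1 CPM in lobular-like cells. The type II activin receptor Acvr2a followed the same cells, at 110.3 and 90.5 CPM. The chordin-like antagonist Chrdl1 reached 317 and 287 CPM in them, 161 and 145 CPM in progenitor-like cells, and 1.41 and 1.2 CPM in ECM remodeling-like cells. Noggin (Nog) had 9.92 and 6.72 CPM in adipogenesis-regulatory-like cells and 0 and 0.105 CPM in progenitor-like cells, the latter from 0 and 2 UMIs.

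ECM remodeling-like cells carried the highest mean Id1 (195 CPM, 9.78 times the progenitor-like level), Fstl3 (58.6 CPM, 24.4 times), Tgfb1 (30.7 CPM, 4.53 times) and Gdf11 (16.6 CPM, 4.00 times the lowest state). Fstl3 is a follistatin-like antagonist of activins, and Gdf11 signals through activin receptors. Preadipocyte-like cells were highest for the stress-induced Gdf15, at a mean of 8.69 CPM. Follistatin (Fst), the best known activin antagonist, was highest in progenitor-like cells at 423 CPM and lowest in ECM remodeling-like cells at 36.7 CPM. Of 13 receptor, co-receptor and pseudoreceptor genes only Acvr2a was at least 4 times higher in its highest state, leaving out Bmpr1b with 11 UMIs, and Bmpr1a, a type I BMP receptor, differed by 1.27 times between states.

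**Figure D2:**
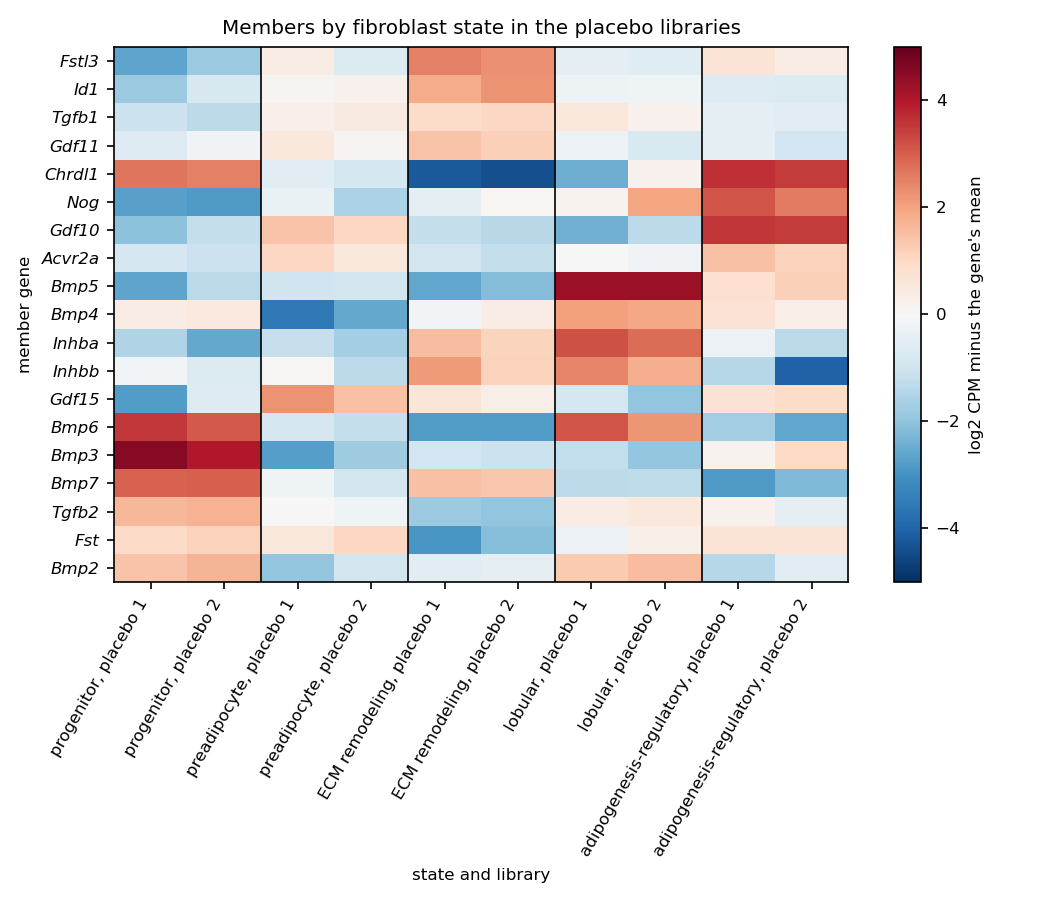
Color gives log2 CPM minus the member's mean over the 10 columns, for the 19 members whose highest state was at least 4 times the lowest, by fibroblast state and placebo library. Values below 3 UMIs are drawn at that floor. Bmp5 and Inhba are highest in lobular-like cells, Bmp3 and Bmp6 in progenitor-like cells, and Gdf10, Chrdl1 and Nog in adipogenesis-regulatory-like cells, in both libraries.

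The second comparison asked what MPA+E did to these genes in all fibroblasts. Of 41 members tested, 5 fell and 1 rose (edgeR quasi-likelihood test, adjusted p under 0.05 over all genes tested), and Grem1 did not pass the count filter. Of all 15642 genes, 4.33% were called, 2.69% higher and 1.64% lower. The members had a median log2 fold change of -0.052, beside 0.0052 for all genes. P-values here and below measure only the spread between the libraries of a group.

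Among the ligands, Bmp3 had 20.9 and 19.3 CPM in the placebo libraries and 6.25 and 5.34 CPM in the MPA+E libraries. It fell by 1.78 on the log2 scale (SE 0.10, edgeR adjusted p = 0.00691). Bmp6 had 10.9 and 9.64 CPM under placebo and 5.34 and 4.79 CPM under MPA+E, a log2 change of -1.01 (SE 0.11, edgeR adjusted p = 0.0145). For both genes each MPA+E library lay below each placebo library, but this was also so for Gdf11 and Bmpr2, which were not called. The share of all genes without overlap was not counted, here or below. No other ligand passed the test, among them Bmp4 (20.6 and 26.5 against 13.9 and 14.4 CPM, edgeR adjusted p = 0.111) and Tgfb2 (67.2 and 61.7 against 88.7 and 106 CPM, edgeR adjusted p = 0.0952). Tgfb1 and Tgfb3 had log2 changes of -0.0095 and 0.072.

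Of 13 receptor, co-receptor and pseudoreceptor genes, Tgfbr2 rose, Acvr2a fell and the others did not pass. Acvr2a, an activin and BMP type II receptor, had 50.7 and 36.9 CPM under placebo and 22.5 and 19.1 CPM under MPA+E (log2 change -1.06, SE 0.14, edgeR adjusted p = 0.0252). Tgfbr2, the type II receptor for TGF-beta, had 499 and 447 CPM under placebo and 737 and 712 CPM under MPA+E (log2 change 0.63, SE 0.11, edgeR adjusted p = 0.0454). The groups did not overlap for either receptor, nor for Bmpr2 and Tgfbr3, which were not called. No type I receptor passed the test.

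Chrdl1 was the only antagonist called, with 110.4 and 109.7 CPM under placebo and 45.3 and 38.5 CPM under MPA+E (log2 change -1.39, SE 0.10, edgeR adjusted p = 0.00745). Smad3, the signal carrier of the TGF-beta and activin branch, had 30.7 and 26.8 CPM under placebo and 19.4 and 17.7 CPM under MPA+E (log2 change -0.62, SE 0.087, edgeR adjusted p = 0.0288). The Id genes did not pass, and Id1 had 48.3 and 58.3 CPM under placebo and 71.4 and 109 CPM under MPA+E (edgeR adjusted p = 0.22).

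Within the named states the same genes differed in the same libraries, as a description. Bmp3 in progenitor-like cells had 69.3 and 47.5 CPM under placebo and 16.0 and 21.1 CPM under MPA+E. Bmp6 in the same cells had 28.2 and 20.9 CPM against 7.81 and 11.2 CPM, while in preadipocyte-like cells it was higher under MPA+E, at 7.83 and 4.00 CPM against 1.39 and 1.07 CPM. Chrdl1 was lower in progenitor-like cells (161 and 145 against 41.2 and 24.0 CPM), with a smaller gap in adipogenesis-regulatory-like cells (317 and 287 against 240.2 and 230.2 CPM). Acvr2a was lower in preadipocyte-like cells, at 26.5 and 24.3 CPM against 82.5 and 58.1 CPM. Tgfbr2 was higher in lobular-like cells (285 and 293 against 773 and 610.3 CPM) and in preadipocyte-like cells (272 and 252 against 747 and 576 CPM). Smad3 was lower in preadipocyte-like cells (49.9 and 47.8 against 27.6 and 30.4 CPM), and in lobular-like cells its 4 values lay between 19.9 and 21.2 CPM.

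**Figure D3:**
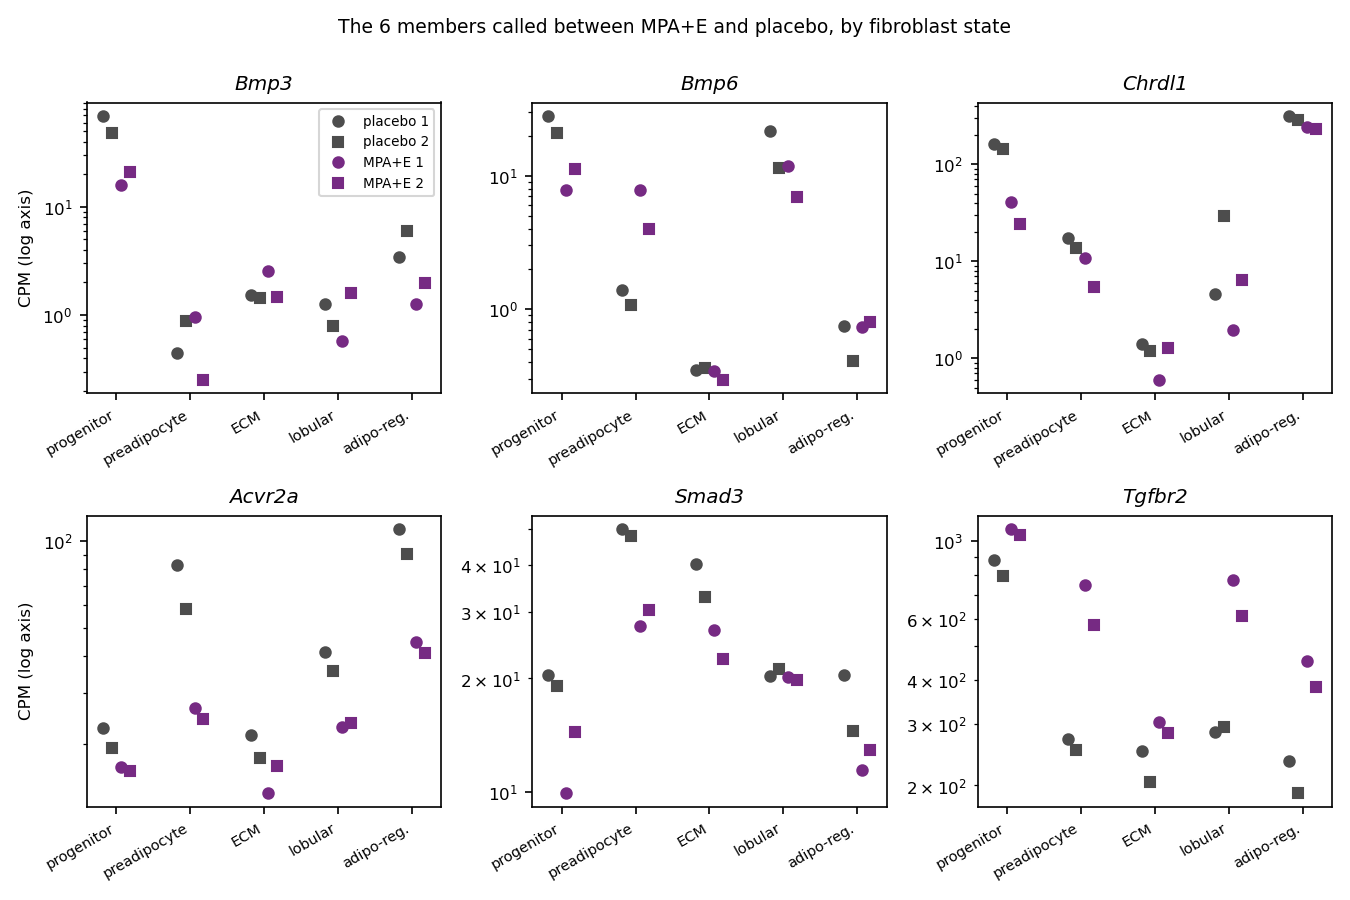
Each panel plots the CPM (log axis) of 1 of the 6 members called between MPA+E and placebo, in 5 fibroblast states, with 1 point per library and values below 3 UMIs drawn at that floor. Tgfbr2 is higher in both MPA+E libraries in every state shown, and Bmp3 and Chrdl1 are lower in both in progenitor-like cells.

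Of 33 further pathway components tested, 2 rose and 3 fell, beside the 4.33% called among all genes. Bmp8a, a BMP ligand, had 8.75 and 10.9 CPM under placebo and 24.8 and 28.8 CPM under MPA+E, and its close copy Bmp8b had 0 and 0.0139 against 0.310 and 0.702 CPM. Reads of this pair may be shared between them, so their own levels are uncertain. The components that fell were the repulsive guidance molecule receptor Neo1 (log2 change -0.82), the BMP Smad Smad5 (-0.50) and the ubiquitin ligase Smurf1 (-0.68). Of 12 TGF-beta-responsive genes only Tgfbi fell and 0 rose, at 102 and 126 CPM under placebo and 19.7 and 14.6 CPM under MPA+E. Of 7 BMP-responsive genes tested, only Tmem100 fell (194 and 180.3 against 133 and 119.6 CPM).

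The endothelial marker list moved with the treatment, at 14.5 to 14.6 CPM under placebo and 43.9 to 45.7 CPM under MPA+E. Nearly all of it was Kdr, with Cdh5 at no more than 0.374 CPM in the 4 libraries. The pericyte list was lower under MPA+E, at 12 to 12.5 CPM against 19.6 to 20.7 CPM under placebo. Pecam1 and Rgs5 were at 0 by the fibroblast rule, so their absence says nothing about such cells. The muscle and immune lists reached at most 4.12 and 1.96 CPM in these libraries. The part of these lists in the results was not tested.

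Leaving out either placebo library left 0 members called by edgeR, with 9 (without placebo 1) and 12 (without placebo 2) at an unadjusted p under 0.05, and all 6 kept their direction. Tgfbr2 also missed the threshold without either MPA+E library.

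The third comparison asked how tumor fibroblasts differed from hyperplasia fibroblasts of the raGFP-Wnt1 model. Of 42 members tested, 10 rose and 9 fell (limma-voom, adjusted p under 0.05 over all genes tested). The fit also held the puberty and adult libraries, joined as the normal group, so their difference in stage counted as spread. It did not use the shared mouse. Of all 16302 genes 29.3% were called, 15.4% higher and 13.9% lower, the background against which the 19 of 42 are to be read. Of the 3 TGF-beta ligands 2 rose, and all 3 activin and inhibin subunits rose, among them the inhibin alpha subunit Inha. Of the 9 BMP or GDF ligands 4 fell (Bmp4, Bmp2, Gdf10 and Gdf11) and 0 rose. Of ligands outside the 42, Gdf6 rose and Gdf9 and Bmp8a fell. The median log2 fold change over the members was -0.12, beside -0.013 for all genes.

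Tgfb3, a TGF-beta ligand, had 24.6 and 18.8 CPM in hyperplasia 1 and 2 and 85.9 and 118 CPM in tumor 1 and 2 (log2 change 2.24, SE 0.21, limma adjusted p = 0.00374). Tgfb1 had 23.0 and 21.4 CPM in hyperplasia and 64.1 and 97.8 CPM in tumor (log2 change 1.84, SE 0.25, limma adjusted p = 0.00809). Inhba had 6.41 and 6.63 CPM in hyperplasia and 61.8 and 147 CPM in tumor (log2 change 3.88, SE 0.39, limma adjusted p = 0.00424). All 3 were higher in each tumor library than in any of the other 11 libraries, as the plot of all libraries shows. Inhbb rose from 5.77 and 9.24 to 29.3 and 25.4 CPM (limma adjusted p = 0.025), while Tgfb2 did not pass, at 63.6 and 93.4 against 46.2 and 67.4 CPM (limma adjusted p = 0.18). In each mouse Tgfb2 was lower in the tumor, and it was called with the mouse as a block.

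Among the BMP or GDF ligands, Bmp4 had 60.2 and 64.0 CPM in hyperplasia and 7.88 and 2.46 CPM in tumor (log2 change -3.79, SE 0.47, limma adjusted p = 0.00667). Bmp2 had 50.3 and 54.6 CPM in hyperplasia and 10.5 and 3.99 CPM in tumor (log2 change -3.0, SE 0.42, limma adjusted p = 0.00843). Gdf10 fell from 73.1 and 41.0 to 19.5 and 17.0 CPM (log2 change -1.59, limma adjusted p = 0.021). The hyperplasia and tumor libraries did not overlap for any of these, nor for Bmp7 and Gdf15, which were not called. Bmp3 split the tumors, with 20.1 and 33.6 CPM in hyperplasia, 32.4 CPM in tumor 1 and 1.54 CPM in tumor 2 (limma adjusted p = 0.27). The protease Bmp1, which processes procollagen and cleaves chordin, rose from 166 and 163 to 309 and 267 CPM (log2 change 0.81, SE 0.17, limma adjusted p = 0.021).

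On the receiving side, the activin receptor Acvr2b fell from 3.40 and 3.71 to 1.19 and 0.775 CPM (log2 change -1.87, limma adjusted p = 0.0103). Bambi, a receptor without a kinase domain that dampens TGF-beta and BMP signals, fell from 30.2 and 29.2 to 10.2 and 12.9 CPM (log2 change -1.37, SE 0.16, limma adjusted p = 0.00536). Id1 fell from 168 and 218 to 68.1 and 87.2 CPM (log2 change -1.31, SE 0.22, limma adjusted p = 0.013), and Id3 from 1089 and 1021 to 678 and 613 CPM (log2 change -0.71, limma adjusted p = 0.025). Id3 was not called in a fit of the 4 raGFP-Wnt1 libraries alone (limma adjusted p = 0.0502) or without tumor 2 (0.0532). In both tumor libraries both Id genes lay above the puberty and adult libraries, in which Id1 had 32.7 and 45.0 CPM and Id3 had 491 and 466 CPM. Against the placebo libraries this held for Id1 (48.3 and 58.3 CPM) but not for Id3, since placebo 2 had 736 CPM. Smad3, Smad6, Smad7 and Id2 did not pass.

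Of the antagonists, Grem1, a secreted BMP inhibitor, rose from 0.319 and 0.207 CPM (18 and 15 UMIs) to 1.43 and 4.52 CPM (147 and 397 UMIs). Its summed UMIs gave a ratio of 11.2 (95% counting interval 7.86 to 16.4, counting error only), but tumor 1 alone gave 5.60 and tumor 2 alone 17.7. The follistatin-like Fstl1, abundant in every library, rose from 1376 and 1389 to 3029 and 2294 CPM (log2 change 0.93, limma adjusted p = 0.029). The 5 other called members, named after their values were seen, were Acvr1b, Inha and Bmpr1b (higher) and Gdf11 and Acvr2a (lower), with limma adjusted p from 0.032 to 0.049. Bmpr1b, a type I BMP receptor, had 3 UMIs in each hyperplasia library and 79 and 342 in the tumors, a ratio of 47.5 (95% counting interval 21.7 to 130.3). Tumor 1 alone gave 16.6 (7.28 to 46.5) and tumor 2 alone 83.7 (38.1 to 229.7). With the limit of Dcn, Lum and Col1a2 raised to 100 per 10000 UMIs, Bmpr1b and Acvr2a were not called. In barcodes outside the fibroblasts with a UMI of Rgs5, Bmpr1b had 4.03 CPM (28 UMIs), against 0.538 CPM in fibroblasts of all libraries. The part of such cells in its rise was not tested. In the fit of the 4 raGFP-Wnt1 libraries alone, Grem1 (limma adjusted p = 0.056), Bmpr1b (0.067), Acvr1b, Gdf11 and Acvr2a were not called.

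Within the tumors the ligands were not spread evenly over clusters, as a description without a test. A cluster with F5, Cdkn2a and Igfbp2 among its leading genes, found in tumor 1 (1541 cells) and tumor 2 (781 cells) and left unnamed, held Inhba at 214 and 215 CPM and Tgfb1 at 156 and 168 CPM. Another, with C1qtnf3, Thbs4 and Aqp5 among its leading genes (1210 and 555 cells), held Tgfb3 at 247 and 252 CPM, and Grem1 at 3.73 and 11.7 CPM. Grem1 was highest in tumor 2 in a cluster of 402 cells with Actg2, Mcam and Notch3 among its leading genes, at 15.4 CPM. Within each tumor Bmp4 was highest in the ECM remodeling-like cells, at 50.5 and 27.5 CPM, beside 118 and 147 CPM in the same state in hyperplasia. Progenitor-like cells of tumor 1 (1867 cells) had Bmp3 at 129 CPM and Inhba at 2.73 CPM, and those of tumor 2 (273 cells) had 9.38 and 35.3 CPM.

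**Figure D4:**
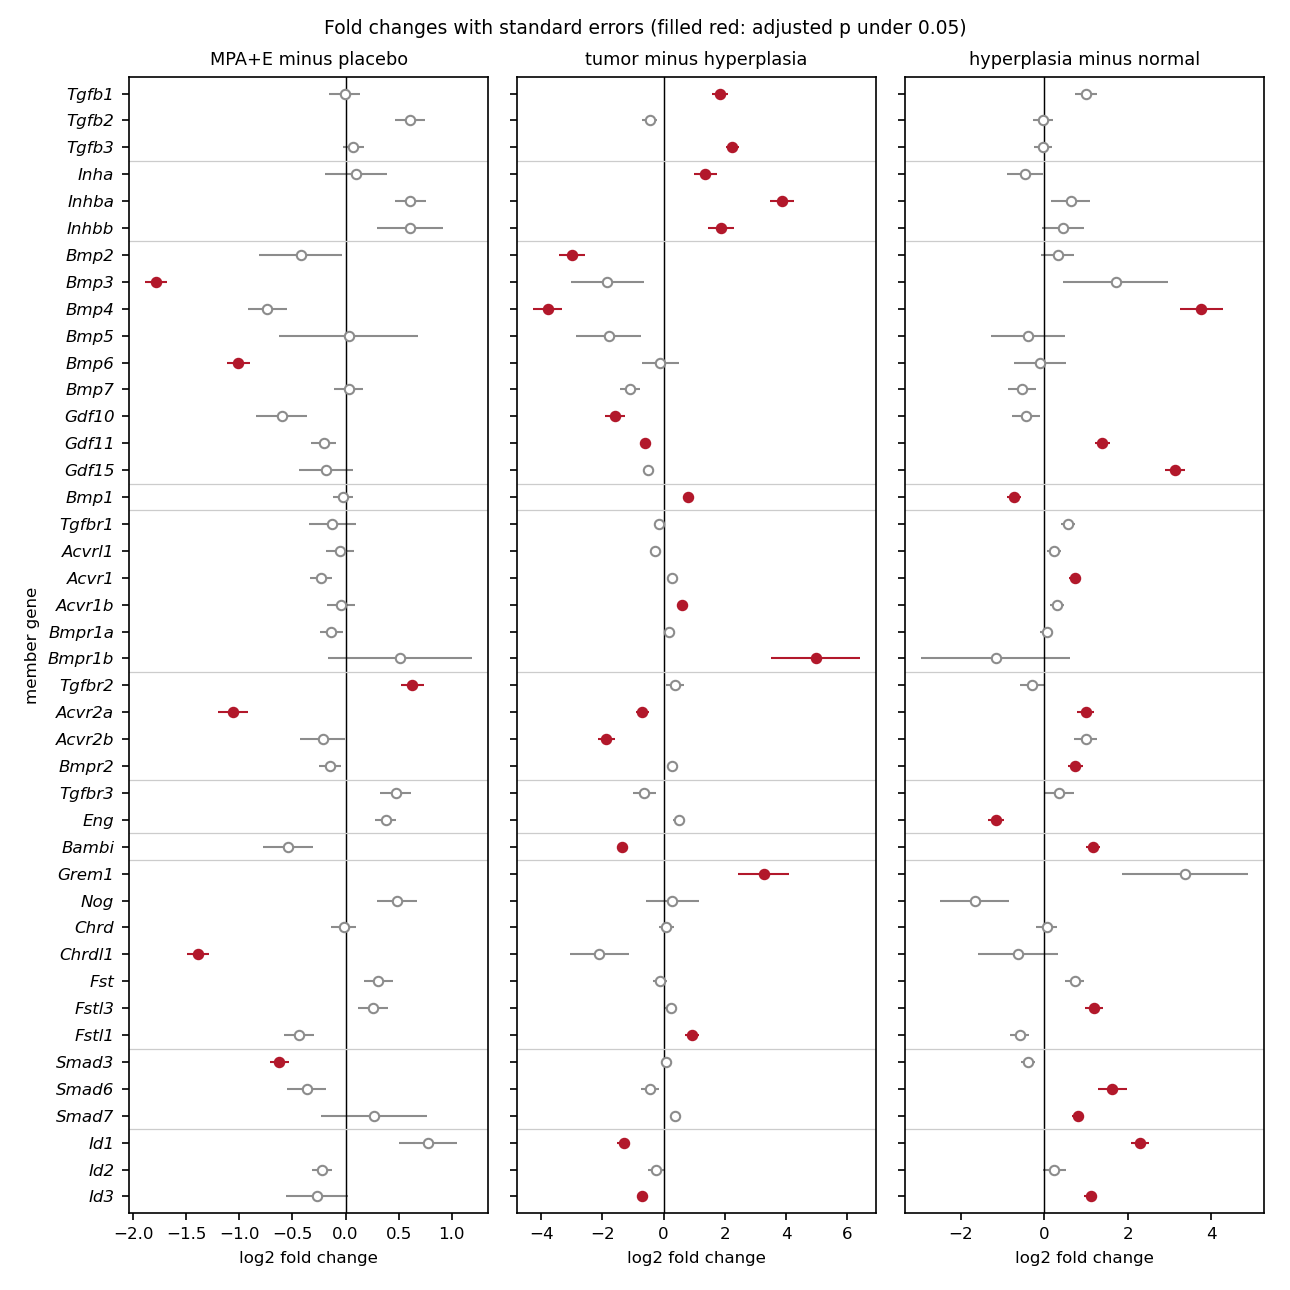
Points give the log2 fold change of each member and bars its standard error, for MPA+E minus placebo (edgeR), tumor minus hyperplasia and hyperplasia minus normal (limma-voom, normal being puberty and adult), with filled red points for adjusted p under 0.05 and a separate axis range in each panel. In the tumor panel the called TGF-beta ligands and activin or inhibin subunits lie right of 0, and the called BMP or GDF ligands left of it.

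Of a list of 12 TGF-beta-responsive genes, 10 rose and 1 fell, at a median log2 fold change of 3.11. The list was chosen with earlier results of these data known, so its direction is no independent evidence. Ltbp2, which belongs to the latent TGF-beta binding protein family, had 0.602 and 0.483 CPM in hyperplasia and 195 and 139 CPM in tumor, and the smooth muscle gene Tagln had 3.17 and 3.44 against 448 and 1117 CPM. Ccn2, Comp and Cthrc1 rose as well, and Tgfbi fell (151 and 105 against 11 and 20.6 CPM). Of 33 other components 5 rose and 5 fell, a share close to the 29.3% called among all genes. Those that rose included the ligand Gdf6 (5.24 and 3.29 against 27.8 and 24.0 CPM, log2 change 2.66, limma adjusted p = 0.0036), the feedback gene Pmepa1 (217 and 276 against 1162 and 1166 CPM) and Lrrc32, which holds latent TGF-beta on the surface (20.5 and 17.9 against 55.7 and 80.2 CPM), and those that fell included Htra1 (683 and 574 against 206 and 208 CPM). Of 7 BMP-responsive genes 0 rose and 2 fell, again close to that share, and these were Id4 (21.5 and 15.7 against 9.22 and 8.02 CPM) and Dlx5.

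The summed pericyte markers were 19.5 to 20.8 CPM in hyperplasia and 34.4 to 43.2 CPM in tumor. Rgs5 was at 0 by the fibroblast rule. The dissociation-response genes (Fos, Jun, Egr1, Hspa1a, Hspa1b) summed to 23301 to 26849 CPM in hyperplasia and 9342 to 13406 CPM in tumor. The Schwann list was 15 and 21.5 CPM in hyperplasia and 9.21 and 1.81 CPM in tumor, and the endothelial list 5.47 and 12.7 against 2.81 and 3.53 CPM. Their part in the results was not tested. Without the clusters led by mural, myoepithelial or Schwann genes in any library, a choice made after seeing the data, the same 19 members were called. Of the hyperplasia and tumor libraries, only tumor 2 lost cells by this removal (402 cells, 9.49%). Tumor 1, which had the higher pericyte sum (43.2 against 34.4 CPM), lost 0 cells. The part of such cells in tumor 1 was therefore not tested. Leaving out hyperplasia 1 left Tgfb3 alone called, and leaving out hyperplasia 2 left Tgfb3 and Inhba, while all 19 kept their direction. The sizes rested on the tumor library: without tumor 1 the log2 changes of Inhba, Bmp4 and Bmp2 were 4.48, -4.68 and -3.74, and without tumor 2 they were 3.28, -2.94 and -2.29. With the mouse as a block, 21 members were called, with Eng and Tgfb2 added.

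The fourth comparison set hyperplasia fibroblasts against normal fibroblasts, with the puberty and adult libraries as the normal group. Of 42 members 12 rose and 2 fell (limma-voom, the same fit), while 14% of the 16302 genes were called, 7.70% higher and 6.29% lower. The median log2 fold change over the members was 0.33, beside -0.0054 for all genes. Genotype, strain, sort and age differed together between these groups and cannot be told apart, and the hyperplasia libraries are shared with the tumor comparison.

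Gdf15 had 2.59 and 1.95 CPM in puberty and adult and 20.6 and 18.9 CPM in hyperplasia (log2 change 3.13, SE 0.23, limma adjusted p = 0.0055). Id1 had 32.7 and 45.0 CPM against 168 and 218 CPM (log2 change 2.28, SE 0.22, limma adjusted p = 0.0072). Gdf11 had 5.81 and 6.54 CPM against 18.2 and 15.3 CPM (log2 change 1.39, SE 0.18, limma adjusted p = 0.013). These 3 were also called when the placebo libraries took the place of the normal group, a choice made after seeing the data, with log2 changes of 2.25, 1.82 and 1.16 and limma adjusted p of 0.011, 0.023 and 0.037.

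The other 11 calls depended on which wild-type libraries were used. Bmp4 had 5.23 and 3.98 CPM in puberty and adult, 20.6 and 26.5 CPM in the placebo libraries and 60.2 and 64.0 CPM in hyperplasia, so its log2 change of 3.76 (SE 0.51, limma adjusted p = 0.014) became 1.38 (limma adjusted p = 0.17) against placebo. Bambi had 12.1 and 13.8 CPM in puberty and adult, 23.1 and 30.4 CPM in placebo and 30.2 and 29.2 CPM in hyperplasia. Id3 had 491 and 466 CPM, 487 and 736 CPM and 1089 and 1021 CPM in the same groups. For Bambi placebo 2 lay above both hyperplasia libraries, whereas for Bmp4 and Id3 no wild-type library reached the hyperplasia level.

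Smad6 rose from 2.73 and 3.20 to 9.58 and 9.25 CPM (log2 change 1.62, limma adjusted p = 0.036), with 6.64 and 4.52 CPM in placebo. Smad7 rose from 89.0 and 93.6 to 174 and 153 CPM (log2 change 0.80, limma adjusted p = 0.026), with 99.6 and 168 CPM in placebo, of which placebo 2 lay above hyperplasia 2. Both are feedback inhibitors of the pathway. Fstl3 rose from 6.38 and 9.36 to 19.8 and 17.2 CPM (log2 change 1.19, limma adjusted p = 0.027), with 14.9 and 11.4 CPM in placebo, against which its change was 0.47 (limma adjusted p = 0.26). The receptors Acvr1, Acvr2a and Bmpr2 were called as well, with log2 changes of 0.72, 0.98 and 0.74, but against placebo their changes were -0.077, 0.10 and -0.18 and none passed. Those that fell were the co-receptor Eng (58.3 and 58.0 against 30.8 and 23.4 CPM, log2 change -1.15, limma adjusted p = 0.023) and Bmp1 (283 and 252 against 166 and 163 CPM, log2 change -0.73, limma adjusted p = 0.040). In placebo Eng had 38.6 and 34.9 CPM and Bmp1 had 219 and 206 CPM, and against placebo their log2 changes were -0.48 and -0.39 (limma adjusted p = 0.26 and 0.24).

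**Figure D5:**
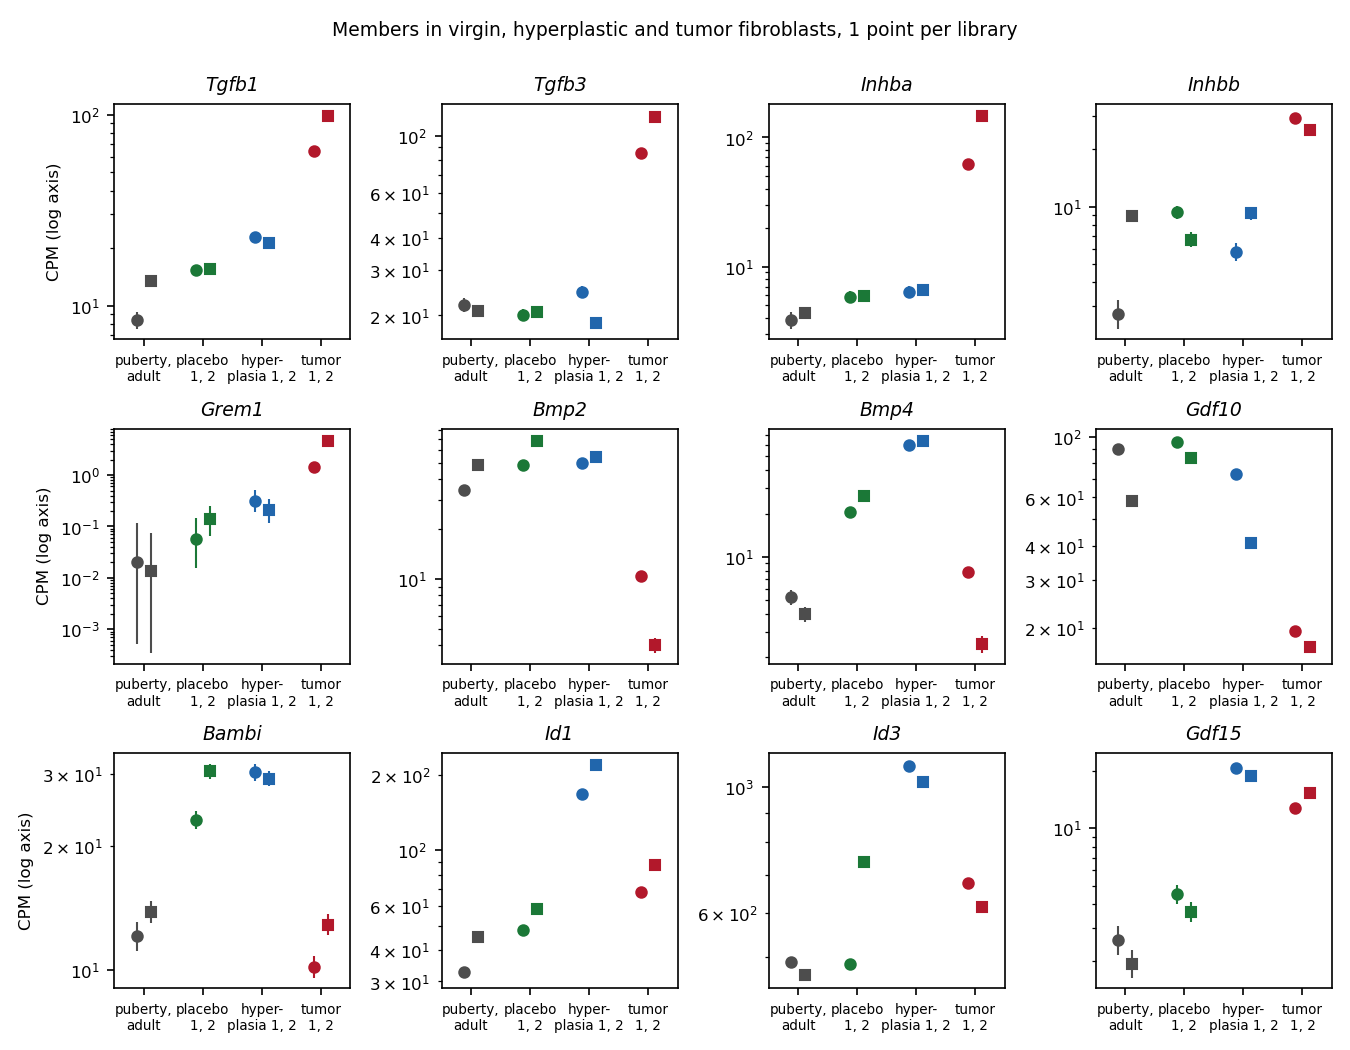
Each panel plots the CPM (log axis, own range) of 1 member per library with its 95% exact Poisson interval, for puberty (circle) and adult (square), and for replicates 1 (circle) and 2 (square) of placebo, hyperplasia and tumor. Tgfb1, Tgfb3, Inhba, Inhbb and Grem1 are highest in both tumors, and Bmp4, Id1, Id3 and Gdf15 are highest in both hyperplasia libraries.

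The next counts stand beside the 14% of all genes called in this comparison. Of 12 TGF-beta-responsive genes, 2 rose in hyperplasia, among them Ccn2 (16.2 and 23.2 against 87.8 and 86.4 CPM), and 3 fell (Cilp, Tagln and Acta2). In the placebo libraries Ccn2 had 71.4 and 107 CPM, on both sides of the hyperplasia values. Cilp, Tagln and Acta2 were higher in both placebo libraries than in either hyperplasia library. Acta2 had 45.7 and 17.8 CPM in puberty and adult and 0.761 and 2.07 CPM in hyperplasia. Of 33 other components, the signal carrier Smad2 rose (15.6 and 16.4 against 26.5 and 26.7 CPM) and Chrdl2 fell (1.74 and 0.582 against 0 and 0.0276 CPM). In the placebo libraries Smad2 had 34.7 and 29.6 CPM, above both hyperplasia libraries, and Chrdl2 had 0.173 and 0.0693 CPM. Of 7 BMP-responsive genes Id4 rose (6.67 and 5.01 against 21.5 and 15.7 CPM), a share close to that among all genes, while the share of the other components was below it. Dissociation-response genes summed to 10927 to 14271 CPM in puberty and adult, 15631 to 19244 CPM in placebo and 23301 to 26849 CPM in hyperplasia, and the endothelial list was 22.7 and 26.9 CPM in puberty and adult and 5.47 and 12.7 CPM in hyperplasia, mostly Kdr. The muscle list was 7.82 and 4.44 CPM against 0.726 and 1.33 CPM. In barcodes outside the fibroblasts with a UMI of Pecam1, Eng, which fell here, was 9.52 times its fibroblast level. In the same barcodes Id1, Gdf15, Smad6 and Bambi, which rose here, were 9.27, 6.81, 4.85 and 4.02 times theirs. The part of these lists in the results was not tested. Leaving out 1 library left 0 members called without puberty or without either hyperplasia library and 2 without adult, Gdf15 and Id1. At an unadjusted p under 0.05 there were 16 without puberty, 17 without either hyperplasia library and 19 without adult, all by limma-voom.

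The last comparison followed the 5 stages, for which a single library each allowed no test, and their intervals hold counting error alone. Of 40 members with at least 50 UMIs over these libraries, 18 had a highest stage at least 2 times the lowest, and among all 15330 such genes the share was 33.7%. Bmpr1b and Grem1 did not reach 50 UMIs.

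Bmp4 changed most. Its levels were 5.23 CPM at puberty, 3.98 CPM in adult tissue, 4.04 CPM at pregnancy, 32.9 CPM at lactation and 24.5 CPM at involution. Lactation was 8.25 times the adult (95% interval 7.30 to 9.36), but the placebo libraries of virgins were also 5.19 and 6.65 times the adult. Inhbb had 2.73, 8.92, 4.78, 15.3 and 4.56 CPM in the same order of stages, a ratio of 5.59 (4.66 to 6.75) of lactation to puberty. Gdf15 had 6.81 CPM in involution and 1.43 CPM in pregnancy (4.76 times, 3.69 to 6.23). Tgfb1 was lowest in puberty at 8.37 CPM and highest in involution at 24.9 CPM (2.98 times, 2.67 to 3.32), with 13.4, 11.3 and 17.2 CPM in the stages between. Nog, by contrast, had 2.22, 1.10, 0.779, 0.555 and 0.337 CPM, and puberty was 6.59 times involution (4.23 to 10.6).

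The Id genes were lowest in lactation. Id1 had 32.7, 45.0, 36.4, 15.6 and 30.3 CPM from puberty to involution, a ratio of 2.89 (2.69 to 3.11), and Id2 had 148.9, 101.0, 91.1, 51.2 and 101.6 CPM, a ratio of 2.91 (2.79 to 3.03). Id3 was also lowest in lactation, at 352 CPM, but by a ratio of 1.47. Lactation was the highest stage for the receptor genes Acvr2a (52.3 CPM), Bmpr2 (179 CPM), Acvr1 (38.7 CPM) and Tgfbr3 (397 CPM), with ratios from 2.04 to 2.49, and for Bmp3 (19.4 CPM, 3.01 times pregnancy) and Fstl3 (14.3 CPM). The placebo libraries of virgins had similar levels of Bmp3 (20.9 and 19.3 CPM), Fstl3 (14.9 and 11.4 CPM) and Acvr1 (38.4 and 31.6 CPM). Involution was the highest for Bambi, Smad6, Fst and Bmp2, with ratios from 2.00 to 2.56, and puberty for Chrdl1 (117 CPM, 2.07 times the adult). Placebo libraries were above involution for Fst (307 and 347 against 236 CPM) and Bambi (23.1 and 30.4 against 18.5 CPM). They spanned or came near the highest stage for Smad6 (6.64 and 4.52 against 5.90 CPM), Bmp2 (49.0 and 68.0 against 69.4 CPM) and Chrdl1 (110.4 and 109.7 against 117 CPM). Milk protein RNA summed to 591 CPM in lactation and epithelial markers to 33.4 CPM in pregnancy, and their part in these levels was not tested.

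Some of these ratios separated the puberty, adult and pregnancy libraries from those of lactation, involution and placebo. Bmpr2 had 71.7, 86.6 and 92.2 CPM in the former and 179, 156, 155 and 145 CPM in the latter. Acvr2a had 22.8, 23.8 and 21.4 CPM in the former and 52.3, 45.6, 50.7 and 36.9 CPM in the latter. The dissociation-response genes (Fos, Jun, Egr1, Hspa1a, Hspa1b) summed to 10927, 14271 and 11996 CPM in the former. They summed to 15346, 17643, 19244 and 15631 CPM in the latter, so the sums split the same way. Of these genes only Egr1 split so by itself, and Fos, for example, had 4998 CPM in adult and 4553 CPM in lactation. The MPA+E libraries summed to 15885 and 14994 CPM, with means of 20.8 CPM for Acvr2a and 134 CPM for Bmpr2. The part of the dissociation response in these levels was not tested. These receptors are shown because they split this way, so their lack of overlap is no separate evidence. The share of all genes that split so was not counted. Placebo and adult females were both 9 weeks old, and the cause of the split was not tested.

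A few members varied little. Bmpr1a lay between 57.1 and 77.3 CPM in all 13 libraries and Chrd, the chordin gene, between 9.15 and 16.1 CPM. Bmpr1a, Chrd, Nog and Id2 were not called in any of the 3 tested comparisons, under any of the settings run. Nog and Id2 still differed by 7.84 and 3.26 times between their highest and lowest libraries. Tgfbr1, Acvrl1, Tgfbr3, Fst, Tgfb2, Bmp5 and Bmp7 were not called by the test reported for each comparison, but each was called under at least 1 other setting.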

How the data were processed

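Droplet libraries were read from the deposited count matrices, whole-number UMI counts of each gene in each barcode, for which the authors used Cell Ranger 6.1.2 and mm10 (per the labels and the study's methods). The members and gene lists were chosen with earlier results of these data known. Fibroblast barcodes were kept by the limits given in the report, with no doublet caller, and an alternative left out the 5% of barcodes with most UMIs. UMIs were summed per library. MPA+E against placebo was tested with edgeR 4.0.16 (quasi-likelihood, 4 libraries). A single limma-voom fit over 6 libraries (limma 3.58.1) covered tumor, hyperplasia and normal. Genes with low counts were filtered by filterByExpr, scaling was TMM, and p-values were Benjamini-Hochberg adjusted over all genes tested (R 4.3.3). The fits of MPA+E against placebo and of tumor against hyperplasia were also run on simulated counts with known changes. Hyperplasia against normal was not simulated. The simulated spread was a fixed setting not taken from these libraries, so these runs do not measure the error rate here. Each library was clustered alone (Leiden, leidenalg 0.10.2, resolution 0.8, 1000 variable genes without the members, the other pathway genes and the state markers, 30 components, 20 neighbours). A cluster took the name of a state when at least 3 of its fixed markers were raised, at a mean log2 fold of 0.8.

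Called members were named up to the 14 with the smallest adjusted p in each comparison, with stage ratios of at least 2 and state ratios of at least 4 as the other limits. Lists beside the members were other pathway components, TGF-beta-responsive and BMP-responsive genes. Per the labels, a mouse gave both the hyperplasia and the tumor library that share its number, and their deviations from the group means correlated at r = 0.0954 over 16001 genes. Alternatives were DESeq2 1.42.0, other scaling, no filter, other cell limits, each library left out, the replicate block, the raGFP-Wnt1 libraries alone, other clustering resolutions, and, chosen after seeing the data, removal of clusters led by mural, myoepithelial or Schwann genes and other wild-type groups. Promoter windows came from RefSeq, without those on chromosome 18. Intervals cover counting error only. The values of 1 list gene are not reported here.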

Additional observations from a re-analysis of the deposited data

Results flagged for a closer look

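Barcodes left out of the fibroblasts carried several members at high levels, in data that entered no comparison. In 694 barcodes with a UMI of the endothelial gene Pecam1, Eng had 401 CPM against 42.1 CPM in fibroblasts of all libraries, and Id1 had 721 CPM against 77.7 CPM. Gdf15 had 53.7 CPM there against 7.89 CPM, Smad6 had 27.7 CPM against 5.71 CPM and Bambi had 74.4 CPM against 18.5 CPM. In 1431 barcodes with a UMI of the pericyte gene Rgs5, Gdf15 had 256 CPM, 32.4 times its fibroblast level. Id1 had 460 CPM there, Id3 had 2670 CPM against 609.8 CPM, Acvr2b had 10.2 CPM against 1.95 CPM and Bmp5 had 28.7 CPM against 6.63 CPM. These values pool all libraries and were not tested.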

How the results depend on the processing

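For MPA+E against placebo, DESeq2 called 1358 genes and 10 members, adding Bmp4, Fstl1, Inhba and Tgfb2 to the same 6. Leaving out 1 library gave 22 to 900 genes and 0 to 8 members. Without placebo 1 it gave 22 genes, and without placebo 2 it gave 42. Tgfbr2 was lost without the 5% of barcodes with most UMIs (edgeR adjusted p = 0.0558). The replicate numbers of these 4 libraries are not stated to pair them (r = 0.396 over 15642 genes), and a replicate block gave 2451 genes and 17 members.

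For tumor against hyperplasia, leaving out 1 library gave 242 to 7120 genes and 1 to 25 members, with 242 genes without hyperplasia 1 and 314 without hyperplasia 2. The replicate block by mouse gave 6152 genes and 21 members. The 4 raGFP-Wnt1 libraries alone called 13 members, losing Acvr1b, Acvr2a, Bmpr1b, Gdf11, Grem1 and Id3. All 19 called members kept their direction in each setting run.

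For hyperplasia against normal, DESeq2 called 4017 genes and 19 members, adding Acvr2b, Fst, Grem1, Tgfb1 and Tgfbr1, and leaving out 1 library gave 1 to 183 genes and 0 to 2 members. With the placebo libraries as the wild type there were 281 genes and 3 members, and with placebo, puberty and adult together 695 genes and 3 members, both choices made after seeing the data. Against placebo Acvr1 and Bmpr2 had log2 changes of -0.077 and -0.18, the reverse of those against puberty and adult, and the cause was not tested. The stage counts of 17 to 19 and state counts of 19 to 22 stayed within 1.5 times of 18 and 19. Other settings kept the counts of called members within 1.5 times. With 2 libraries a group, small differences were not detectable, and Grem1, Bmpr1b, Inha and Nog rest on the fewest UMIs.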
